A study of Mus musculus with 383 samples.

Results

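Cadherins are the transmembrane proteins that hold neighbouring cells together at adherens junctions, and catenins are the cytoplasmic proteins that tie them to actin. The 8 genes described here were taken by name, as 5 cadherins (Cdh1, Cdh3, Cdh2, Cdh11 and Cdh13) and 3 catenins (Ctnna1, Ctnnb1 and Ctnnd1), out of 49585 genes in the table. A change from E-cadherin to N-cadherin is a textbook feature of epithelial-mesenchymal transition, the process by which epithelial cells take on a mesenchymal form. Cdh1 encodes E-cadherin, the main cadherin of epithelia, and Cdh3 encodes P-cadherin, which in skin marks basal keratinocytes and the hair follicle. Cdh2 encodes N-cadherin, found in nerve, muscle and mesenchyme, and Cdh11 encodes OB-cadherin of osteoblasts and fibroblasts. Cdh13 encodes T-cadherin, which is held in the membrane by a lipid anchor and lacks the cytoplasmic tail that binds catenins. Beta-catenin (Ctnnb1) binds the cadherin tail and is also the transcriptional effector of Wnt signalling, alpha-catenin (Ctnna1) joins it to actin, and p120-catenin (Ctnnd1) binds nearer to the membrane and keeps cadherins at the surface.

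The cells came from mouse skin squamous cell carcinomas of the genotype Lgr5CreER, KrasLSL-G12D, p53fl/fl, Rosa26-YFP+/+, in which Cre is expressed from Lgr5, a hair follicle stem cell gene, and recombined cells carry YFP. Tumours were digested with collagenase, living YFP+ cells were sorted as Epcam-negative or Epcam-positive (Epcam is a surface adhesion protein of epithelia), and single cells were sequenced by Smart-seq2, a full-length cDNA method without molecular identifiers. All cells of both populations share the genotype and the YFP gate, the age of the animals is not stated in the labels, and the labels name no animal. Each population was therefore 1 sample, cells were not taken as replicates, no test between populations was made, and every interval given is an exact 95% interval that covers counting error only.

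Filtering left out 47 of 310 Epcam-negative cells and 8 of 70 Epcam-positive cells. Kept Epcam-negative cells held 104330 to 900492 gene reads (median 414731) and kept Epcam-positive cells 109743 to 730528 (median 413142). Reads were summed over a population and given as counts per 1000000 gene reads (CPM). The epithelial list Epcam, Krt14, Krt5, Krt17 and Trp63 summed to 2648 CPM in Epcam-negative cells and 24898 CPM in Epcam-positive cells, and the mesenchymal list Vim, Zeb1, Zeb2 and Prrx1 to 6300.3 and 629.4 CPM, with all members of both lists detected in both. Epcam itself was at 22.7 CPM in Epcam-negative cells and 1069 CPM in Epcam-positive cells. Among lists for other cells, dermal fibroblast genes (Pdgfra, Dpt, Col1a1, Lum and Dcn) summed to 6684 CPM (plate rows 3533 to 9936) in Epcam-negative cells and 111.7 CPM (50.2 to 156.1) in Epcam-positive cells, none of them at 0. By the presence limit given below, Col1a1 was present in 93.9% of Epcam-negative and 4.84% of Epcam-positive cells. In the same order Dcn was present in 78.3% and 11.3%, Pdgfra in 58.6% and 6.45%, Dpt in 23.95% and 0%, and Lum in 8.75% and 0%. The YFP gate selects recombined cells. All of these genes were higher in Epcam-negative cells, as were Cdh2, Cdh11 and Cdh13 below, while Cdh1 and Cdh3 were lower. In the sums, fewer cells of a kind and less RNA per cell cannot be told apart. The part of the fibroblast genes in the cadherin ratios was not tested. The endothelial list summed to 5.13 and 15.7 CPM with Tek and Emcn at 0 in both populations, Langerhans cell genes to 7.98 and 71.9 CPM with Cd207 at 0 in both, and immune genes to 20.7 and 25.5 CPM. Pericyte genes were at 52.9 and 16.5 CPM, melanocyte genes at 2.03 and 2.25 CPM, Schwann cell genes at 0.0280 and 0 CPM, muscle genes at 5.73 and 0.0805 CPM and erythroid genes at 0.177 and 1.05 CPM. Epcam-negative cells filled plate rows D to P (13 rows) and Epcam-positive cells rows A to C (3 rows), so the sorted population cannot be told apart from the position on the plate.

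All 8 genes reached 10 CPM in at least 1 population, the level at which a gene was counted as measured, as did 9574 genes in all. In Epcam-negative relative to Epcam-positive cells, Cdh2, Cdh11 and Cdh13 were higher by 2-fold or more, and Cdh1 and Cdh3 lower by 2-fold or more. Thus 3 of 8 were 2-fold higher, against a background of 15.3% of measured genes, and 2 of 8 were 2-fold lower, against 12.9%. The 3 catenins lay within 2-fold. The ratio used is the log2 difference of CPM + 1, Epcam-negative minus Epcam-positive. Its median was 0.10 over the 8 genes, 1.68 over the cadherins and -0.06 over the catenins, beside -0.08 over all measured genes (quartiles -0.60 and 0.55). Since the genes were named with earlier results of these data known, these counts describe them and are no evidence about cadherins in general.

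**Figure D1:**
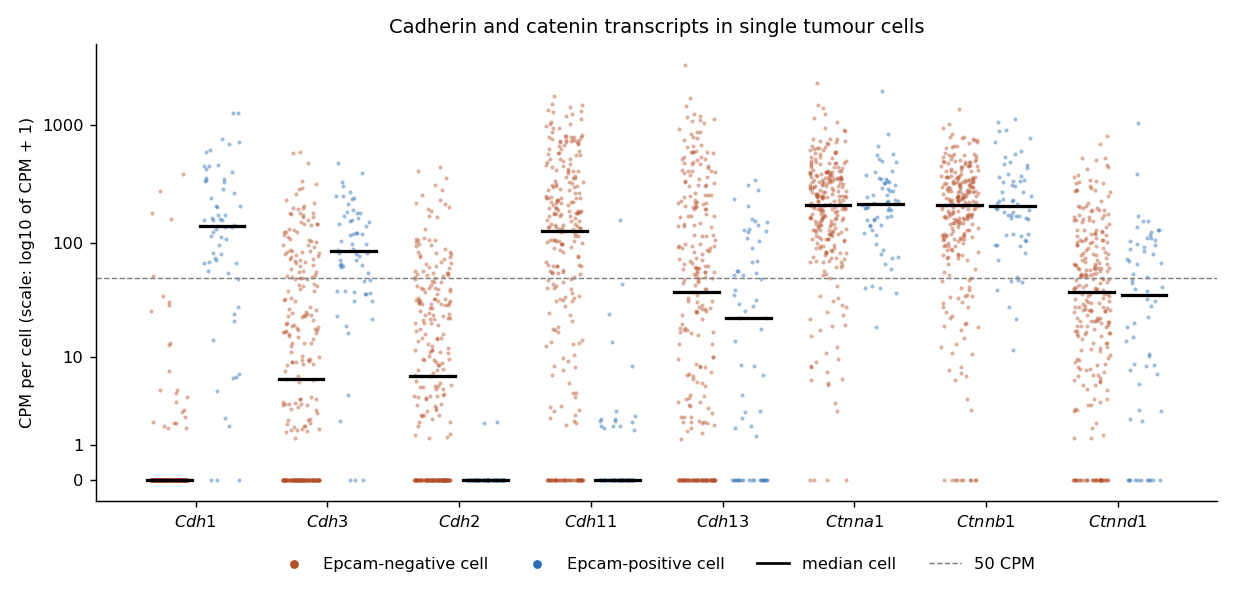
CPM of each gene in each kept cell (vertical axis, log10 of CPM + 1), with Epcam-negative cells left and Epcam-positive cells right within each gene. Black bars are medians over cells and the dashed line is 50 CPM. Cdh1 sits at 0 in most Epcam-negative cells, Cdh2 and Cdh11 sit at 0 in most Epcam-positive cells, and the catenin medians lie side by side.

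E-cadherin transcript was nearly missing from Epcam-negative cells. Cdh1 (ENSMUSG00000000303.12, GRCm38 chr8:106603351-106670246, plus strand) had 419 reads, or 3.90 CPM (3.54 to 4.30), in Epcam-negative cells and 5018 reads, or 202.01 CPM (196.5 to 207.7), in Epcam-positive cells. Over single cells it had a lowest level of 0, a median of 0 and a highest of 379.1 CPM in the Epcam-negative population, against 0, 138.7 and 1255 CPM in the Epcam-positive population. The log2 ratio was -5.37 (-5.49 to -5.25), rank 15 from the lowest among the measured genes. Reads of Cdh1 were seen in 26 Epcam-negative cells (9.89%) and in 59 of 62 Epcam-positive cells, and a single Epcam-negative cell held 32.9% of that population's reads. Cells were also thinned to 100000 reads, with a gene called present at 5 or more of them (50 CPM). By that measure 6 Epcam-negative cells carried Cdh1 (2.28%, 0.842% to 4.90%), against 46 Epcam-positive cells (74.2%, 61.5% to 84.5%).

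P-cadherin was lower in Epcam-negative cells to a lesser extent than E-cadherin. Cdh3 (ENSMUSG00000061048.8, chr8:106510891-106557297, plus strand), which lies beside Cdh1 on the chromosome, was at 39.6 CPM (38.5 to 40.9) in Epcam-negative cells and 119.8 CPM (115.5 to 124.1) in Epcam-positive cells. Its lowest, median and highest cell were at 0, 6.16 and 584.5 CPM in the Epcam-negative population and at 0, 84.1 and 475.2 CPM in the Epcam-positive population. The single-cell ranges overlap throughout, and the highest cell of all was Epcam-negative. The log2 ratio was -1.57 (-1.64 to -1.50). Unlike Cdh1, Cdh3 was still present in 71 Epcam-negative cells (a share between 21.7% and 32.8%), beside 41 Epcam-positive cells (66.1%, 52.99% to 77.7%).

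N-cadherin was low in Epcam-negative cells and close to the counting limit in Epcam-positive cells. Cdh2 (ENSMUSG00000024304.14, chr18:16588877-16809246, minus strand) had 3232 reads, or 30.1 CPM (29.1 to 31.2), in Epcam-negative cells and 2 reads, or 0.0805 CPM (0.00975 to 0.291), in Epcam-positive cells. The CPM ratio was 374-fold with a counting interval of 103.5-fold to 3090.1-fold, and the log2 ratio was 4.85 (4.59 to 4.95). With so few Epcam-positive reads the log2 ratio rests on the pseudocount, at 1.99 with 10 CPM and 7.39 with 0.1 CPM. Single Epcam-negative cells had from 0 through a median of 6.64 up to 439.9 CPM, against 0, 0 and 2.12 CPM in Epcam-positive cells. It was present in 50 Epcam-negative cells (19.01%, 14.5% to 24.3%), against 0 of 62 in the Epcam-positive population (exact interval 0 to 5.78%).

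The cadherin with the largest level per length in Epcam-negative cells was not N-cadherin but OB-cadherin. Cdh11 (ENSMUSG00000031673.6, chr8:102632095-102785642, minus strand) was at 254.5 CPM (251.5 to 257.6) in Epcam-negative cells and 3.90 CPM (3.17 to 4.76) in Epcam-positive cells. Cells ran from 0 through a median of 126.8 to 1743 CPM in the Epcam-negative population, against 0, 0 and 156.2 CPM in the Epcam-positive population. The log2 ratio was 5.70 (5.47 to 5.94), rank 41 from the highest among measured genes. It was present in 170 Epcam-negative cells (64.6%, 58.5% to 70.4%) and in 1 Epcam-positive cell, or 1.61% (0.0408% to 8.66%). That cell held 46.4% of the Epcam-positive reads, and the remaining Epcam-positive cells were at 2.12 CPM. Plate columns 1 to 12 gave a log2 ratio of 5.06, with Epcam-positive cells at 6.49 CPM, and columns 13 to 24 gave 7.40, with Epcam-positive cells at 0.555 CPM.

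T-cadherin was detected widely in both populations. Cdh13 (ENSMUSG00000031841.19, chr8:118283733-119324921, plus strand) was at 183.8 CPM (181.2 to 186.3) in Epcam-negative cells and 56.7 CPM (53.8 to 59.8) in Epcam-positive cells, a log2 ratio of 1.68 (1.60 to 1.76). Its lowest, median and highest cell were at 0, 38.1 and 3203 CPM in the Epcam-negative population and at 0, 22.3 and 337.6 CPM in the Epcam-positive population. The medians lie closer together than the sums, and the highest Epcam-negative cells reach far above the highest Epcam-positive cell. The share with Cdh13 present was 45.6% (39.5% to 51.9%) in the Epcam-negative and 33.9% (22.3% to 47.01%) in the Epcam-positive population, intervals that overlap.

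The catenins that bind classical cadherins were at nearly the same level in both populations. Ctnna1 (ENSMUSG00000037815.6, chr18:35118859-35254779, plus strand) was at 262.5 CPM in Epcam-negative cells and 274.6 CPM in Epcam-positive cells, with cell medians of 209.7 and 213.2 CPM and a log2 ratio of -0.06 (-0.10 to -0.03). Ctnnb1 (ENSMUSG00000006932.17, chr9:120929216-120960507, plus strand) was at 253.2 and 282.6 CPM, with cell medians of 207.5 and 205.7 CPM and a log2 ratio of -0.16 (-0.20 to -0.12). Ctnnd1 (ENSMUSG00000034101.14, chr2:84600071-84650765, minus strand) was at 69.4 and 57.3 CPM, with cell medians of 37.6 and 35.6 CPM and a log2 ratio of 0.27 (0.19 to 0.35). Single cells ran from 0 to 2243 CPM of Ctnna1 in the Epcam-negative and 18.7 to 1906 CPM in the Epcam-positive population. For Ctnnb1 they ran from 0 to 1362 and 11.5 to 1109 CPM, and for Ctnnd1 from 0 to 799.1 and 0 to 1029.7 CPM, so that the populations overlap over nearly their whole range. The signs of the Ctnna1 and Ctnnd1 ratios depended on the setting. Under TMM scaling Ctnna1 was at 0.07, under spike-in scaling Ctnnd1 was at -0.07, and in the plate columns the Ctnnd1 ratio was -0.12 in columns 1 to 12 and 0.66 in columns 13 to 24. The share with Ctnna1 present was 87.5% in the Epcam-negative and 91.9% in the Epcam-positive population. In the same order Ctnnb1 was present in 82.9% and 93.5%, and Ctnnd1 in 46.01% and 45.2%. The level of Ctnnd1 is uncertain, because 61.2% of its exon bases are shared with the same-strand gene Gm28635, which had 0 reads in both populations, and how reads in shared exons were counted is not given in the sources used here. Of Ctnnb1 exon bases 14.6% overlap the opposite-strand gene Ulk4, which was at 1.68 and 0.121 CPM.

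The differences of the classical cadherins were also seen between plate rows, which are not replicates but parts of the same plate. Cdh1 was at 0 to 19.4 CPM (median 0.582) over the 13 Epcam-negative rows, 4 of which had no read, against 148.7, 185.01 and 264.4 CPM in the 3 Epcam-positive rows. Cdh3 was at 23.4 to 80.3 CPM (median 32.95) against 105.7, 121.9 and 134.4 CPM, Cdh2 at 9.16 to 59.5 CPM (median 27.9) against 0, 0.110 and 0.133 CPM, and Cdh11 at 118.5 to 586.0 CPM (median 272.5) against 0.533, 2.55 and 7.92 CPM. In none of these 4 genes did the rows of the populations overlap, while over all measured genes every Epcam-negative row was above every Epcam-positive row in 8.46% and below in 9.7%. Cdh13 rows overlapped, at 65.1 to 398.7 CPM (median 159.6) in Epcam-negative and 42.1, 50.3 and 78.6 CPM in Epcam-positive rows, and 11 of 13 Epcam-negative rows lay above all 3 Epcam-positive rows. Rows of all 3 catenins overlapped.

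**Figure D2:**
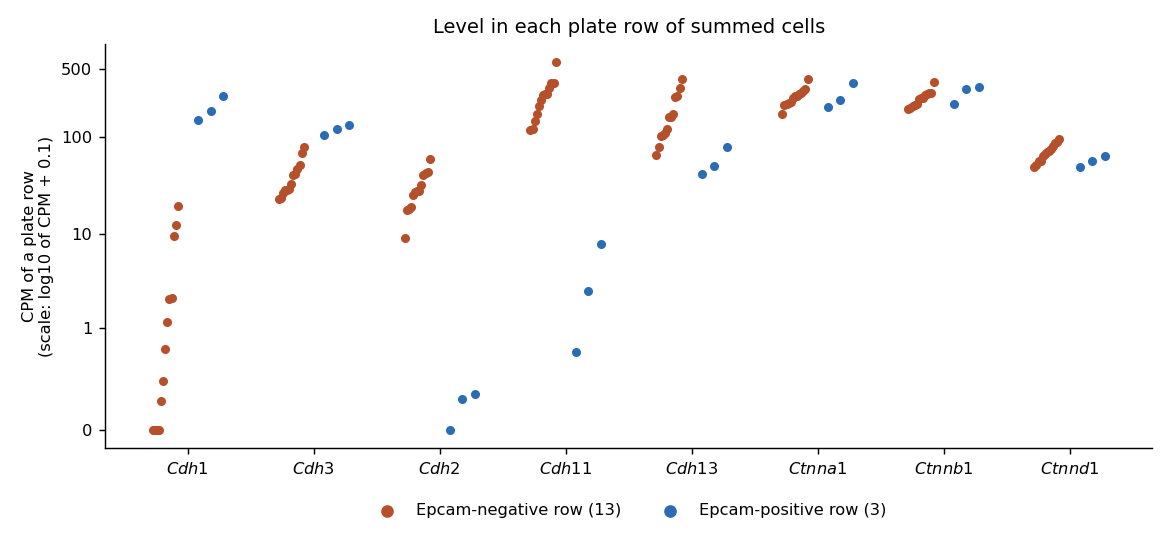
CPM of each gene in each plate row, summed over the row's kept cells (vertical axis, log10 of CPM + 0.1), with 13 Epcam-negative rows left and 3 Epcam-positive rows right, each sorted by level. Rows of the populations are apart for Cdh1, Cdh3, Cdh2 and Cdh11 and overlap for Cdh13 and the catenins.

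Levels of different genes were compared per kilobase of merged exon per 1000000 gene reads (RPKM). In Epcam-negative cells the order of the cadherins was Cdh11 at 28.6 RPKM, Cdh13 at 16.4, Cdh3 at 9.04, Cdh2 at 3.73 and Cdh1 at 0.854 RPKM. In Epcam-positive cells it was Cdh1 at 44.2 RPKM, Cdh3 at 27.3, Cdh13 at 5.05, Cdh11 at 0.439 and Cdh2 at 0.00998 RPKM. The 5 cadherins summed to 58.6 RPKM in Epcam-negative cells and 76.98 RPKM in Epcam-positive cells, and the 4 classical ones (all but Cdh13) to 42.2 and 71.9 RPKM. Of the sum of 5, Cdh11 made up 48.8% in the Epcam-negative and 0.570% in the Epcam-positive population, Cdh2 6.37% and 0.0130%, Cdh13 27.9% and 6.56%, Cdh3 15.4% and 35.5%, and Cdh1 1.46% and 57.4%. Ctnnb1 (48.8 and 54.4 RPKM) and Ctnna1 (40.9 and 42.7 RPKM) stood above Ctnnd1 (9.48 and 7.83 RPKM) in both populations. By this measure Ctnnb1 stood above the summed classical cadherins in Epcam-negative cells and below them in Epcam-positive cells. The order of genes depends on the merged exon lengths, and which transcript forms the cells used was not tested.

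Single cells carried different sets of cadherins. In the Epcam-negative population the most frequent sets were Cdh11 alone in 64 cells (24.3%), Cdh11 with Cdh13 in 39 (14.8%), Cdh13 alone in 27 (10.3%), Cdh3 with Cdh13 in 20 (7.60%) and Cdh2 with Cdh11 in 18 (6.84%). In the Epcam-positive population they were Cdh1 with Cdh3 in 19 cells (30.6%), Cdh1 with Cdh3 and Cdh13 in 12 (19.4%), Cdh1 alone in 10 (16.1%) and Cdh3 alone in 7 (11.3%). None of the 5 was present in 22 Epcam-negative cells (8.37%, 5.32% to 12.4%) and 5 Epcam-positive cells (8.06%, 2.67% to 17.8%). With a stricter filter on cells, of at least 250000 gene reads and 3000 genes and at most 10% mitochondrial and 25% spike-in reads, Epcam-negative cells without any of the 5 made up 4.93% of their population and such Epcam-positive cells 2.04% of theirs. Of the 50 Epcam-negative cells with Cdh2, 37 had Cdh11 as well (74%, 59.7% to 85.4%), against 62.4% (55.6% to 68.97%) of those without Cdh2, intervals that overlap. Both were present in 14.1% of Epcam-negative cells, where the product of the single shares was 12.3%, and Cdh2 alone was seen in 8 cells.

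**Figure D3:**
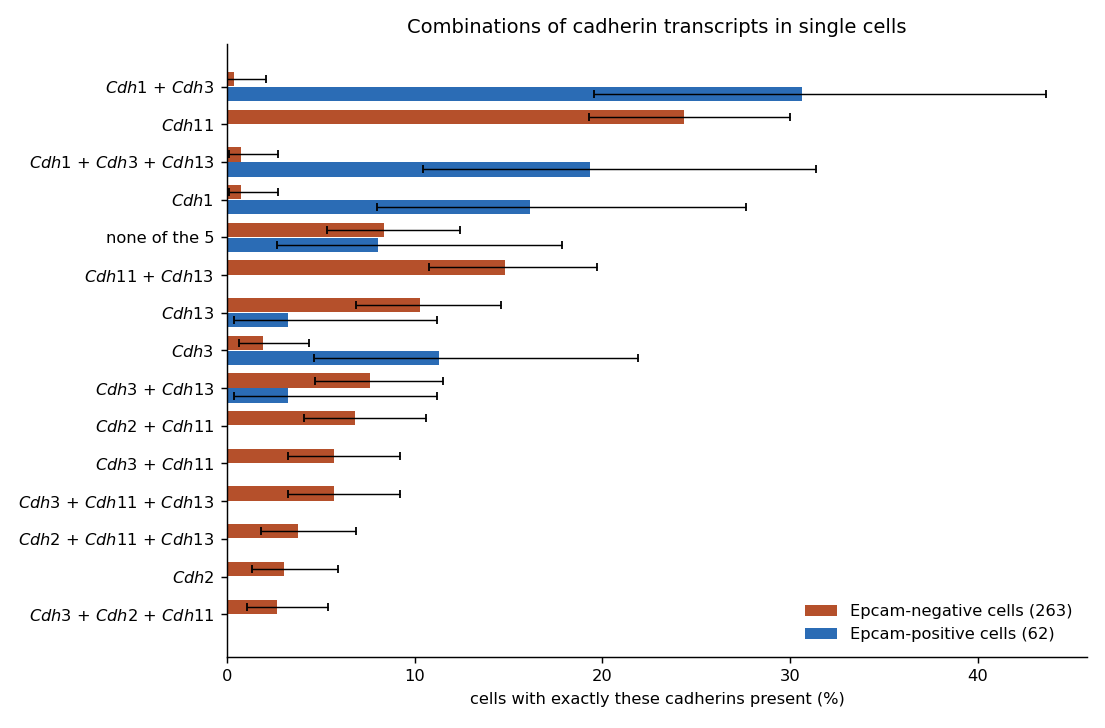
Share of cells (horizontal axis, percent) with exactly the named cadherins present at 50 CPM, with the Epcam-negative bar above the Epcam-positive bar and exact 95% Clopper-Pearson intervals, for combinations seen in at least 5 cells of a population. Cdh11 alone leads in Epcam-negative cells at 24.3% and Cdh1 with Cdh3 leads in Epcam-positive cells at 30.6%.

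Cdh1 and the mesenchymal cadherins were rarely above the threshold in the same cell. At least 1 of Cdh2 and Cdh11 reached it in 69.6% of Epcam-negative cells and in 1 of the 62 Epcam-positive cells. Cdh1 together with either of them was found in 0 Epcam-negative cells (exact interval 0 to 1.39%), and in that 1 Epcam-positive cell. The product of the single shares in Epcam-negative cells was 1.59%. In Epcam-positive cells it was 1.20%, beside an observed share of 1.61% from that 1 cell. Split by Cdh11 alone, Cdh1 was present in 0 of 170 Epcam-negative cells with Cdh11 (exact interval 0 to 2.15%). Without Cdh11 it was present in 6 of 93 (6.45%, 2.40% to 13.5%). These intervals did not overlap, but they treat cells of 1 sample as independent. The contrast rests on 6 cells, and 3 of them had Epcam transcript present. Counting any read, 18 of the 26 Epcam-negative cells with a Cdh1 read (69.2%) also had a read of Cdh2 or Cdh11. So did 18 of the 59 such Epcam-positive cells (30.5%). Over all kept cells, a Cdh11 read was seen in 82.5% of Epcam-negative and 27.4% of Epcam-positive cells. The first joint share lies below this level and the second near it. P-cadherin was the epithelial cadherin found beside mesenchymal ones. Cdh1 or Cdh3 occurred together with Cdh2 or Cdh11 in 43 Epcam-negative cells (16.3%, 12.1% to 21.4%, with a product of shares of 19.6%), and all 43 carried Cdh3, since none had Cdh1 with Cdh2 or Cdh11.

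The 6 Epcam-negative cells with Cdh1 present, singled out after their values were seen, had 379.1, 272.5, 177.99, 160.5, 51.8 and 34.7 CPM of Cdh1. All 6 had high Krt14, a basal keratin, at 5297 to 23245 CPM, while Cdh11 and Cdh2 were at most 2.88 CPM in each. Epcam transcript was present in 3 of them. Their Vim, the mesenchymal filament gene, ran from 25.1 to 2996 CPM. The 1 Epcam-positive cell with Cdh11 present had 156.2 CPM of Cdh11 from 45 reads, beside 333.2 CPM of Cdh1, 277.6 CPM of Cdh13, 246.4 CPM of Epcam and 3273 CPM of Vim.

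Most cells in which no classical cadherin reached the threshold still had catenin transcripts. None of the 4 classical cadherins was present in 49 Epcam-negative cells (18.6%, 14.1% to 23.9%) and 7 Epcam-positive cells (11.3%, 4.66% to 21.9%). Ctnna1 and Ctnnb1 were both present in 41 of those 49 Epcam-negative cells (83.7%) and 5 of those 7 Epcam-positive cells, beside 75.7% and 87.1% of all kept cells. In 27 of the 49 Epcam-negative cells and 2 of the 7 Epcam-positive cells Cdh13, which does not bind catenins, was the cadherin present.

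Within the Epcam-negative population the cadherins differed between cells with and without keratin. Krt14 was present in 49.05% of the cells, and 29 cells lay within 2-fold of the 50 CPM limit, so the classes are ranges of a continuous level. Cdh1 had 415 reads (8.17 CPM) where Krt14 was present and 4 reads (0.0707 CPM) where it was not. Cdh3 was present in 36.4% (28.1% to 45.4%) against 17.9% (11.8% to 25.5%), and Cdh13 in 58.1% (49.1% to 66.8%) against 33.6% (25.7% to 42.2%). Cdh11 went the other way, at 54.3% (45.3% to 63.1%) where Krt14 was present against 74.6% (66.4% to 81.7%) where it was not. Cdh2 was at 15.5% (9.73% to 22.9%) against 22.4% (15.6% to 30.4%), intervals that overlap. Ctnna1 was at 321.8 CPM in cells with Krt14 and 209.2 CPM in cells without, while Ctnnb1 was at 232.3 and 271.99 CPM. Median depth was 397230 reads with Krt14 and 429790 without.

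Cells with Trp63, the p63 factor of basal keratinocytes, also differed from the rest in their cadherins. In the 41 Epcam-negative cells with Trp63 present (16 cells lay within 2-fold of the limit) Cdh3 was at 110.2 CPM, against 27.9 CPM in the others, and Cdh13 at 345.4 against 156.8 CPM. In the same order Cdh2 was at 8.60 and 33.7 CPM and Cdh11 at 127.3 and 275.8 CPM. In the 12 Epcam-negative cells with Epcam transcript present, Cdh1 was at 63.4 CPM (56.2 to 71.2), against 1.31 CPM (1.10 to 1.55) in the remaining cells. A single cell held 48.6% of the Cdh1 reads of those 12 and another held 52.6% of the Cdh1 reads of the rest, and without these the levels were 35.4 and 0.625 CPM. The median over the 12 cells was 19.3 CPM. Ctnna1 was at 476.2 CPM in those 12 cells and 253.2 CPM in the rest. Without these 12 and 2 Epcam-positive cells with no Epcam present, the log2 ratio of Cdh1 was -6.45.

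In the Epcam-positive population Vim was present in 29 cells and not in 33, with 10 cells within 2-fold of the limit. Cdh1 was at 142.8 CPM where Vim was present, against 258.3 CPM where it was not, and the shares with Cdh1 present were 65.5% (45.7% to 82.1%) and 81.8% (64.5% to 93.02%). Cdh3 was at 103.2 and 135.5 CPM and Cdh13 at 61.1 and 52.6 CPM. Both Cdh2 reads of the Epcam-positive population and 88 of its 97 Cdh11 reads came from cells with Vim present, and 45 of these Cdh11 reads from the single cell above. Over the 62 cells Cdh13 had a Spearman correlation of -0.52 with Epcam and Cdh1 one of -0.31 with Vim. The cells of a population share sort, plate and depth range, and such correlations are descriptions.

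The genes whose level over the kept Epcam-negative cells was most like each cadherin differed in kind. Among 6427 genes, those nearest to Cdh3 were Perp (Spearman correlation 0.49), a desmosome protein and p53 target, Sfn (0.48), the 14-3-3 sigma of keratinocytes, and Plek2 (0.46). All 3 had lower levels in the Epcam-negative population, with log2 ratios of -2.85, -2.97 and -2.60. Nearest to Cdh11 were the matrix genes Col11a1 (0.53), Col5a2 (0.48) and Adamts2 (0.47), a procollagen protease, with log2 ratios of 5.99, 6.23 and 6.82. Nearest to Cdh13 were Pkp1 (0.53), a desmosomal plakophilin, the nucleoside transporter Slc29a1 (0.52) and Slc16a11 (0.52). Their log2 ratios were -1.86, 1.19 and -1.29, so Pkp1 and Slc16a11 went against the ratio of Cdh13 itself (1.68). For the catenins the highest correlation was lower, at 0.34 for Ctnna1 (Hsp90ab1), 0.28 for Ctnnb1 (Sptan1) and 0.32 for Ctnnd1 (Ehmt1).

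The 3 genes nearest to Cdh2 sit close to each other on chromosome 9, while Cdh2 lies on chromosome 18. They were Tmem123 (0.56, chr9:7764041-7794333), Yap1 (0.54, chr9:7931999-8004596), the Hippo pathway co-activator, and Birc2 (0.51, chr9:7818227-7837064), an inhibitor of apoptosis. Their correlations with Cdh13 had the opposite sign, at -0.51, -0.49 and -0.47. Tmem123 was present in 84.8% of Epcam-negative cells and not in the other 40, with 30 cells within 2-fold of the limit. Where it was present Cdh2 was at 33.5 CPM and present in 21.5% of cells (16.3% to 27.5%), against 10.7 CPM and 5.00% (0.611% to 16.9%) elsewhere. Cdh13 was at 155.98 CPM and present in 39.9% (33.4% to 46.7%) of cells with Tmem123, against 345.3 CPM and 77.5% (61.5% to 89.2%) elsewhere. Split by Yap1 (69.6% of cells against the other 80 cells), Cdh2 was at 39.2 against 9.41 CPM and Cdh13 at 110.4 against 350.2 CPM. Because these genes were picked for their correlation with Cdh2, the Cdh2 values only restate it. Cdh2 and Cdh13 themselves were present together in 16 cells (6.08%), against a product of their shares of 8.67%.

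**Figure D4:**
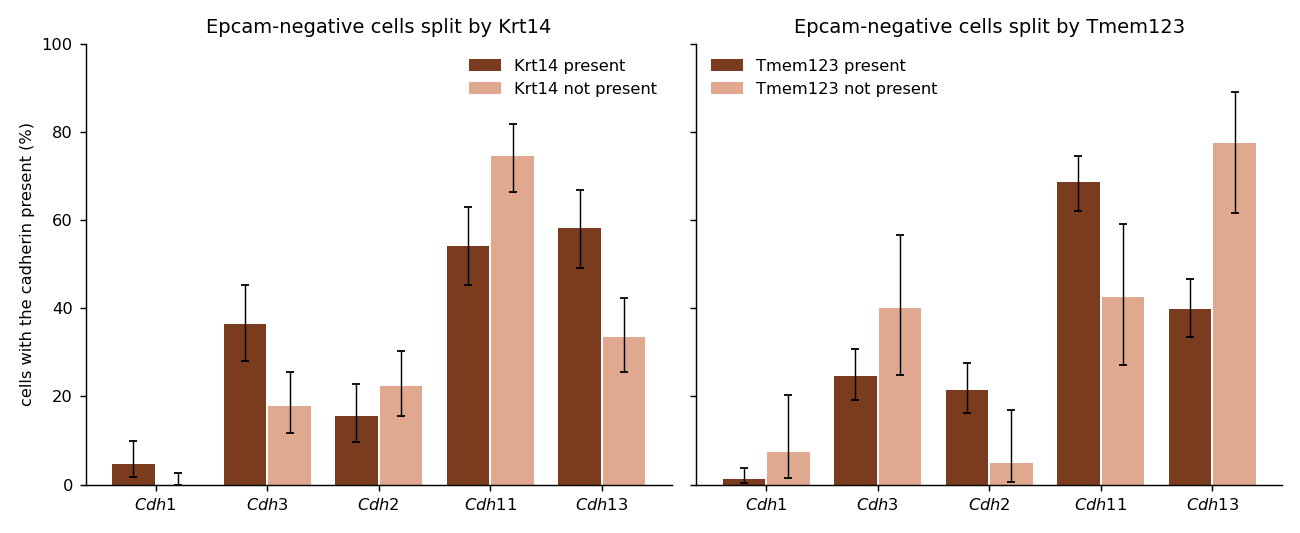
Share of Epcam-negative cells with each cadherin present (vertical axis, percent), where Krt14 (left panel) or Tmem123 (right panel) is present (dark, left) or not (light, right), with exact 95% Clopper-Pearson intervals. Cdh13 is more frequent with Krt14 (58.1% against 33.6%) and less frequent with Tmem123 (39.9% against 77.5%).

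Over the 62 Epcam-positive cells and 6314 genes, the nearest to Cdh1 were Galnt7 (0.52), Anxa1 (0.47) and Sgpl1 (0.46), to Cdh3 Itfg1 (0.50), Dkk3 (0.47) and Prkdc (0.45), and to Cdh13 Gusb (0.60), Col8a1 (0.59) and Hcfc1r1 (0.57). For the catenins they were led by Prpf6 for Ctnna1 (0.51), Zfp36l1 for Ctnnb1 (0.49) and Pard3, a polarity protein, for Ctnnd1 (0.47). Each is among the highest of 6314 correlations over only 62 cells. How high the largest would be for unrelated genes was not tested. The number of cells differs between the populations, so the sizes of these values cannot be compared with those over Epcam-negative cells. Cdh1 and Cdh3 had a correlation of only 0.06 over the 62 Epcam-positive cells, and were present together in 32 (51.6%), against a product of their shares of 49.1%.

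Other members of the cadherin superfamily differed in both directions. Of 37 listed genes 11 were measured, with a median log2 ratio of 0.05. Of these, 4 lay beyond 2-fold on the Epcam-negative side, 4 beyond it on the Epcam-positive side and 3 within. The background over all measured genes was 15.3% higher and 12.9% lower by 2-fold or more. The protocadherin gene Pcdh19 was at 129.8 CPM in Epcam-negative cells and 1.05 CPM in Epcam-positive cells (log2 ratio 6.0), and 61.5% of its Epcam-positive reads came from 1 cell. Fat4, a large atypical cadherin, was at 13.1 and 0.0403 CPM (3.77), and Pcdh18 at 21.8 and 1.41 CPM (3.24), with 88.6% of its Epcam-positive reads in 1 cell. Lower in Epcam-negative cells were the planar polarity cadherins Celsr1 (6.23 and 65.8 CPM, -3.21) and Celsr2 (4.17 and 38.5 CPM, -2.94), Fat2 (8.14 and 55.9 CPM, -2.64) and Clstn1, a calsyntenin (37.2 and 78.9 CPM, -1.07).

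Among 25 other adherens junction genes 21 were measured, with a median log2 ratio of -0.39. Of these, 2 were 2-fold or more higher in the Epcam-negative population, 7 lower and 12 within. The same background was 15.3% higher and 12.9% lower. Nectins are immunoglobulin-like adhesion proteins of the same junction, and they differed from one another. Nectin3 was at 93.2 CPM in Epcam-negative cells and 18.7 CPM in Epcam-positive cells (2.26), and Nectin4 at 0.447 and 21.0 CPM (-3.92). Jup, the gamma-catenin that also serves desmosomes, was lower by more than 2-fold, where Ctnna1, Ctnnb1 and Ctnnd1 were within 2-fold, at 93.5 CPM in Epcam-negative cells and 315.8 CPM in Epcam-positive cells (-1.75, interval -1.79 to -1.70). Plekha7, which binds p120-catenin, was at 2.85 and 13.5 CPM (-1.92), and Zyx, the focal adhesion and junction protein zyxin, at 275.1 and 117.8 CPM (1.22).

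**Figure D5:**
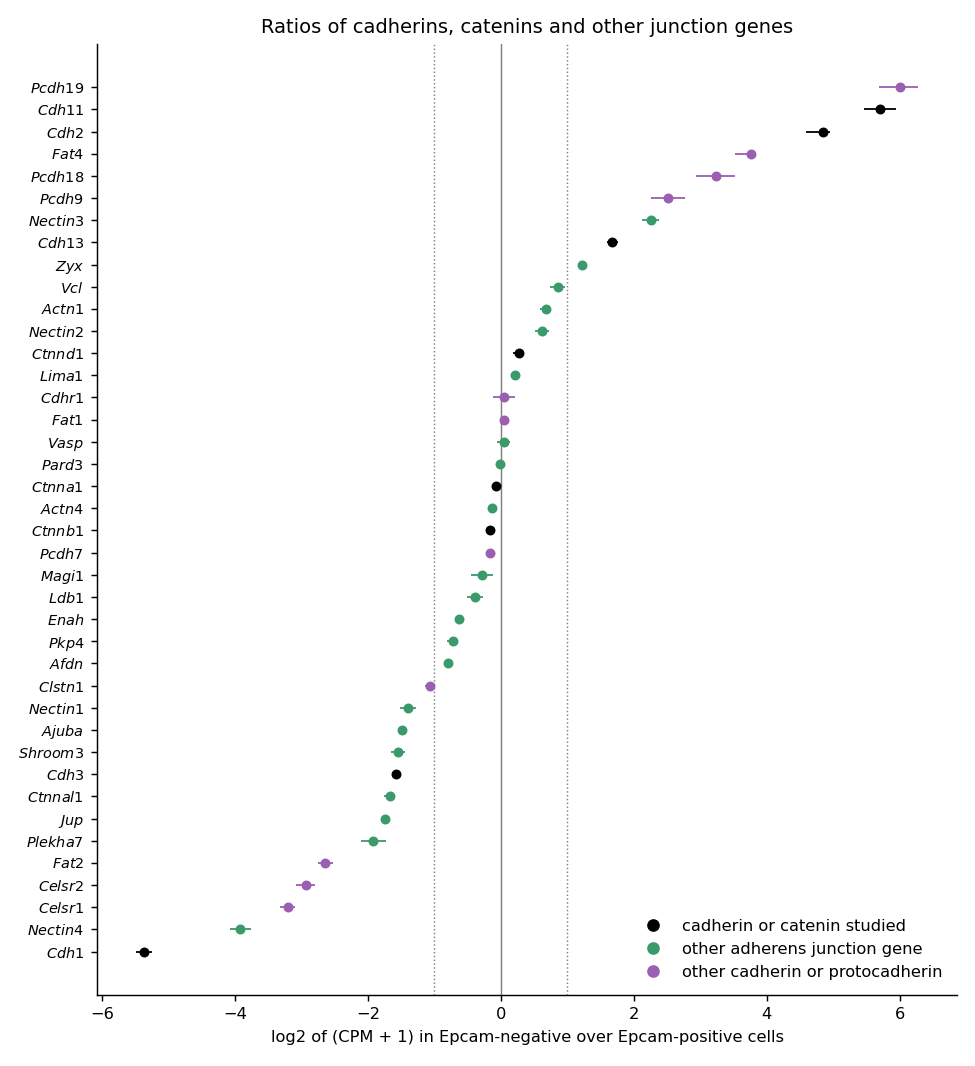
Log2 ratio, Epcam-negative over Epcam-positive, on CPM + 1 (horizontal axis) for the 8 genes, 21 other adherens junction genes and 11 other cadherins and protocadherins, sorted from high to low, with 95% counting intervals. Dotted lines mark 2-fold. Cdh1 is lowest at -5.37 and Cdh11 lies near the top at 5.70, and Ctnna1, Ctnnb1 and Ctnnd1 lie near 0 while Jup is at -1.75.

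Of 25 genes listed for cadherin processing, cleavage and turnover 23 were measured (median 0.08). Of these, 7 lay beyond 2-fold on the Epcam-negative side, 2 on the Epcam-positive side and 14 within. The background was again 15.3% higher and 12.9% lower. Mmp3, a metalloprotease that can cleave E-cadherin, had a log2 ratio of 3.76, with 56.9% of its Epcam-positive reads in 1 cell. Pcsk5, a proprotein convertase, was at 13.7 and 0.362 CPM (3.43), with 40.5% of its Epcam-negative reads in 1 cell. Adam9, a membrane protease, was at 171.5 and 25.8 CPM (2.68), and the receptor phosphatase gene Ptprm at 10.2 and 0.725 CPM (2.70). The phosphatase genes Ptprf (44.5 and 291.01 CPM, -2.68) and Ptpn1 (98.1 and 243.3 CPM, -1.30) were lower in Epcam-negative cells.

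Of 17 genes that control free beta-catenin or act with it in the nucleus 14 were measured, and 11 lay within 2-fold (median 0.04). Of the 14, 2 were 2-fold or more higher and 1 lower, against 15.3% and 12.9% of all measured genes. Tcf7l1 (19.6 CPM in Epcam-negative cells and 6.64 CPM in Epcam-positive cells, 1.43) and Axin1, a scaffold of the destruction complex (31.96 and 15.1 CPM, 1.04), were higher in Epcam-negative cells. Tcf7 (10.8 and 27.2 CPM, -1.26) was lower, and Btrc (11.3 and 5.15 CPM, 1.00) fell just short of 2-fold.

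Of the 8 genes, promoter windows from RefSeq (GRCm38.p6, 250 bases before to 50 after the start) were at hand for Ctnnb1 and Ctnnd1, 4 windows in all. None of the 4 held the E-box CACCTG on either strand, a motif that Snai1 and Zeb factors are known to bind and that 20.2% of 32851 such windows hold.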

How the data were processed

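Per the labels' protocols, YFP+ single cells were sorted into a well plate with spike-in RNA, amplified by Smart-seq2 and sequenced in single reads of 50 bases. Per the submitters' processing notes, cutadapt 1.13 trimmed the reads, STAR 2.5.2b placed them on GRCm38 and HTSeq 0.6.0 counted them. The deposited values are raw read counts per gene and spike-in in 383 wells. Neither annotation release nor strand setting is given in the sources used here, and reads of overlapping genes may be shared or lost. Of 49585 gene identifiers, 49326 were given a symbol from GENCODE vM21, whose positions are printed, and 259 were not matched.

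Cells were kept with at least 100000 gene reads, 2000 genes, at most 20% mitochondrial reads and at most 50% spike-in reads, which left out 47 Epcam-negative and 8 Epcam-positive cells. Counts were summed per population and scaled to CPM, and ratios used a pseudocount of 1 CPM. No doublet caller was used, since the sort had a doublet gate. Intervals are Poisson for CPM, Clopper-Pearson for shares and conditional binomial for ratios, at 95%. In single wells a count of 0 reads was taken to allow 3. Without molecular identifiers, reads are not independent molecules, so these cover counting error only. With 1 sample per population there was no test, and groups came from the labels' titles. The ratio code was tested on simulated data.

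The 8 genes and all gene lists were chosen with earlier results of these data known. Named genes are the 8, Epcam, Krt14 and Vim, and in each list the up to 4 measured genes with the largest absolute ratio plus any that goes against the list's median by 2-fold or more. Nearest genes are the 3 with the highest Spearman correlation of log2(CPM + 1) among genes at 20 CPM or more and present in 10% or more of the cells, without predicted, mitochondrial and ribosomal protein genes. Alternatives were other cell filters, pseudocounts of 10 and 0.1 CPM, the mean CPM over cells, TMM (edgeR 4.0.16), median-of-ratios (DESeq2 1.42.0) and spike-in scaling, both sets of plate columns, other presence limits and left-out cells. Python 3.11.15, numpy 2.4.6, pandas 2.3.3, scipy 1.17.1 and R 4.3.3 were used.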

Additional observations from a re-analysis of the deposited data

Results flagged for a closer look

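Wells outside the comparison also held reads of these genes. The well of plate row B labelled as holding 0 cells, in the rows of Epcam-positive cells, had 99241 gene reads, 12.1 per spike-in read, beside medians of 157.2 in kept Epcam-negative and 221.1 in kept Epcam-positive cells. It held 7 reads of Cdh1, 6 of Cdh3, 5 of Cdh13, 25 of Ctnna1, 15 of Ctnnb1 and 11 of Ctnnd1, with 1 read of Cdh2 and 0 of Cdh11. The same well had 8248 genes, beside medians of 6584 in kept Epcam-negative and 6996 in kept Epcam-positive cells. Krt14 was at 9029 CPM there, Epcam at 695.3 CPM and Vim at 1380 CPM. In the same order, Epcam-positive cells were at 13311, 1069 and 592.3 CPM, and Epcam-negative cells at 1836, 22.7 and 5809 CPM. Whether such reads also entered single-cell wells, and so the counts of cells with any read, was not tested. The other 0-cell well, in row E among the Epcam-negative cells, had 4018 gene reads, 0.312 per spike-in read, with 1 read of Cdh3, 2 of Cdh11 and 1 of Cdh13. Cdh1, Cdh3, Cdh13, Ctnna1, Ctnnb1 and Ctnnd1 stood above the 3 reads that a count of 0 allows in the row B well, Cdh2 and Cdh11 did not, and none of the 8 genes did in the row E well.

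The 1 well set up with 50 Epcam-negative cells had 154897 gene reads. It held Cdh11 at 264.7 CPM, Cdh13 at 90.4 CPM and Ctnnb1 at 167.9 CPM, against 0, 50.4 and 151.1 CPM in the 0-cell well of row B. The Cdh13 and Ctnnb1 values rest on 14 against 5 reads and 26 against 15 reads, and their differences were not tested. Ctnna1, at 238.9 against 251.9 CPM, and Ctnnd1, at 83.9 against 110.8 CPM, were lower in the 50-cell well. Cdh1 and Cdh2 had 0 reads there, which allows up to 19.4 CPM for each, and Cdh3 had 2 reads. The 0-cell well of row E had Cdh11 at 497.8 CPM from 2 reads and Cdh13 at 248.9 CPM from 1 read. Both values were above the 50-cell well, but at 0 reads the row E well allows up to 746.6 CPM.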

How the results depend on the processing

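No paired analysis was possible because there was 1 sample per population and the labels give no shared replicate numbers. The ratios of the 5 cadherins kept their sign and stayed beyond 2-fold in all 70 values under 14 alternatives, and the counts of 3 genes higher and 2 lower did not change. Cdh1 ranged from -6.45 (without cells whose Epcam transcript goes against the sort) to -3.93 (pseudocount of 10 CPM), Cdh11 from 4.25 to 7.40, Cdh2 from 1.99 to 7.39, Cdh3 from -1.92 to -1.30 and Cdh13 from 1.33 to 1.81. The median of all measured genes moved by 0.13 under TMM, 0.11 under median-of-ratios and -0.34 under spike-in scaling, and by 0.11 without each gene's top cell. Under spike-in scaling the catenins were at -0.42 for Ctnna1, -0.51 for Ctnnb1 and -0.07 for Ctnnd1, beside -0.42 for all measured genes. Over all alternatives Ctnna1 ran from -0.42 to 0.09, Ctnnb1 from -0.51 to -0.01 and Ctnnd1 from -0.12 to 0.66.

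Shares depend on the presence limit. Cells with none of the 5 cadherins were 0.760% of Epcam-negative and 1.61% of Epcam-positive cells at 1 read in 100000, and 39.5% and 43.5% at 20 reads. With the stricter cell filter they were 4.93% and 2.04%, and at 250000 reads with a limit of 12 the Epcam-positive share was 1.96%. Epcam-negative cells with Cdh1 and Cdh2 or Cdh11 were 2.66% (7 cells) at 1 read, beside 0 at 5 reads. The cause was not tested. Depth limits these shares, as a gene under about 50 CPM is not counted at 100000 reads.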
